A study of Oryctolagus cuniculus with 3 samples.

Results

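Commitment to differentiation in rabbit corneal epithelial cells was described by setting the RNA of committed cells (day 6 of culture) against that of non-differentiated, proliferating cells (day 4). The cells were RCE1(5T5), an established line of rabbit origin derived from the corneal epithelium, sequenced as 1 RNA-seq library for each stage. A library of terminally differentiated cells (day 10) entered the scaling and is quoted for context only. The stages did not differ by genotype or treatment. All cultures were grown with a feeder layer of mouse 3T3 fibroblasts arrested with mitomycin C, in medium that held EGF, insulin, hydrocortisone, cholera toxin, transferrin, triiodothyronine, adenine and fetal calf serum, and EDTA was used to detach the feeder layer ahead of RNA preparation. Stage, day and library cannot be told apart in this design. With 1 library a side no difference has a replicate check, so no test was made. A gene was measured where it reached 1 CPM (fragments per 1000000, scaled to library size) on day 4 or day 6, which held for 12369 of the 20536 gene names, against 12818 when all 3 libraries of the series are considered. A difference is log2(CPM + 1) on day 6 minus the same on day 4. The words rose and fell are kept for differences of at least 2-fold on this scale, which understates the change of low genes. Folds given for single genes are plain ratios of CPM, with the exact 95% interval in brackets, which covers counting error only.

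The corneal epithelium is a stratified lining renewed from stem cells at the rim of the cornea, the limbus. Basal cells divide while attached to a basement membrane of laminins, nidogens and collagen. Cells that commit leave the basement membrane and the cell cycle and replace basal keratins with the corneal pair KRT3 and KRT12. Growth factor signalling through the EGF receptor, matrix contact and ribosome production are hallmarks of the proliferating state, and cell growth slows as the layers build up.

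Over all measured genes 1033 rose (8.35%) and 863 fell (6.98%) from day 4 to day 6, and 10473 did neither. The median difference was -0.02 on the log2 scale, with 5% of genes below -1.14 and 5% above 1.24. At least 4-fold, 151 genes (1.22%) were higher and 86 (0.695%) lower. At least 8-fold, the numbers were 39 and 11. These shares are the background for the gene groups below. The balance of rises and falls depended on the scaling: without TMM factors the counts were 787 and 1217, and with the authors' TPM 567 and 1634, so that rises made up 54.5%, 39.3% and 25.8% of the changed genes in turn. The median of all genes moved to -0.16 without TMM and to -0.32 with TPM. The plot of levels in both libraries shows the groups that lay farthest from the diagonal.

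**Figure D1:**
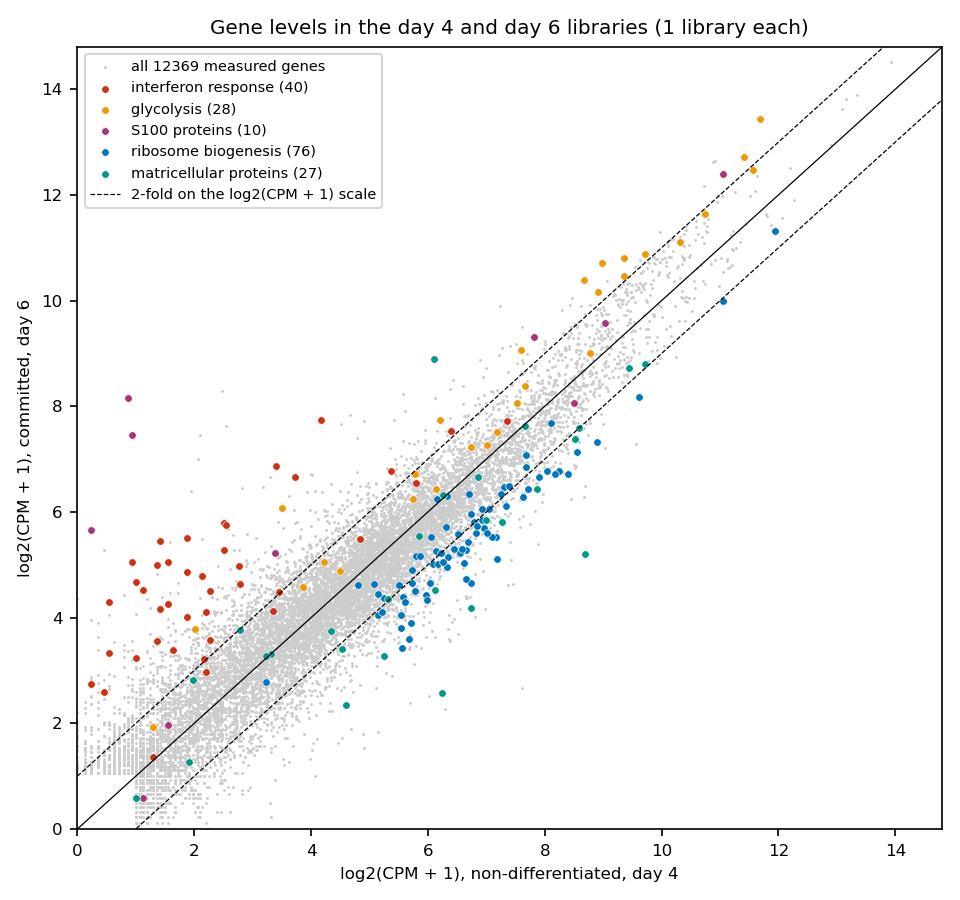
Level of each of the 12369 measured genes, as log2(CPM + 1), in the non-differentiated library of day 4 (x axis) and the committed library of day 6 (y axis), 1 library each. The solid line marks equal levels and the dashed lines 2-fold. Interferon response and glycolysis genes and 8 of 10 S100 genes lie above the diagonal, and 75 of 76 ribosome biogenesis genes and most matricellular genes below it.

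The libraries held 10171693 (day 4) and 12582706 (day 6) fragments. Short coding sequences lay slightly higher on day 6: the median difference was 0.12 in the 2473 genes with the shortest coding sequences (median 465 bases) and -0.16 in the 2473 with the longest (median 3338 bases). The labelled cell type was checked with defining markers. Of 8 corneal epithelial markers 7 reached 1 CPM on day 4 and 8 on day 6, the exception being KRT12, which had 0 fragments on day 4. The few defining markers of keratocytes, endothelium, melanocytes and immune cells were at 0 or low, whereas several fibroblast markers were not. KERA and LUM of keratocytes, PECAM1 of endothelium, MLANA and TYR of melanocytes, and TYROBP, FCER1G and CD3E of immune cells had 0 fragments in both libraries, and the leukocyte gene PTPRC had 16 and 22. Other markers of the same cell types did have fragments on days 4 and 6: OGN and ASPN of keratocytes 41 and 0 and 21 and 1, CDH5 and KDR of endothelium 21 and 5 and 26 and 82, and PMEL of melanocytes 16 and 94. Wider lists of such genes were not all low. The immune list summed to 164.5 and 209.3 CPM, and of 4 measured genes 1 rose and 0 fell. The keratocyte list summed to 220.3 and 406 CPM, and of 4 measured genes 1 rose and 3 fell. The endothelial, melanocyte and neural list summed to 2076 and 1799 CPM, and of 7 measured genes 2 rose and 2 fell. Of 8 fibroblast markers 7 reached 1 CPM on both days, the exception being LUM: COL1A1, COL1A2, COL3A1, PDGFRA, PDGFRB, DCN and THY1 summed to 1923, 1168 and 752.5 CPM on days 4, 6 and 10. THY1 did not follow this sum, at 19.64, 16.75 and 76.95 CPM, while each of the others was lower on day 6 and lower again on day 10. In RNA from a whole culture, fewer cells of a type and less RNA per cell cannot be told apart.

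Many differentiation genes of the corneal surface rose by day 6, most of the named ones from low levels. Of 21 measured genes of that list 14 rose and 0 fell, with a median difference of 1.57. The list keeps its direction under every scaling tried, although without TMM factors 13 rose and 2 fell and with the authors' TPM 12 rose and 3 fell. KRT4, a keratin of moist surface epithelia, rose from 4.96 to 49.9 CPM, 10.1-fold [7.62 to 13.6]. Its relative KRT78 rose from 17.2 to 82.7 CPM, 4.79-fold [4.1 to 5.63]. TGFBI, a secreted matrix protein abundant in the cornea, went from 68.1 to 473 CPM, 6.95-fold [6.43 to 7.51]. MUC4, a mucin of the cell membrane, rose from 1.01 to 15.8 CPM, and PSCA, a small surface protein, from 2.29 to 21.2 CPM, 9.25-fold [6.13 to 14.6]. The water channel AQP5 was barely present on day 6, at 4.89 CPM (4 fragments on day 4 and 59 on day 6), against 139 CPM on day 10. The members that did not pass were not all flat: KLF5 and KLF6, zinc-finger factors, were at 78.1 and 38.8 CPM and at 27.2 and 13.6 CPM, close to a 2-fold decrease, and CLU, a secreted chaperone, was at 408 CPM on both days.

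In the keratin family some members rose and the others stayed within 2-fold. Of 18 measured keratins 7 rose and 0 fell as reported, with the lowest difference at -0.90. Without TMM 7 rose and 1 fell, and with TPM 7 of 17 rose and 1 fell. KRT10, a keratin of suprabasal cells that is better known from skin, rose from 21.9 to 203 CPM, 9.24-fold [8.09 to 10.6], and lay lower again on day 10, at 137 CPM. KRT15, a keratin of basal and limbal cells, rose 6.92-fold to 104 CPM. Per coding length, which allows levels of different genes to be compared, KRT5 stood far above the corneal pair on day 6: its TPM was 8930 on day 4 and 10203 on day 6, while KRT3 went from 81.4 to 395 TPM and KRT12 from 0 to 10.4 TPM. Keratins of simple epithelia were near their starting level, with KRT8 at 406 and 482 CPM, KRT18 at 468 and 399 CPM and KRT7 at 20.6 and 20.9 CPM. KRT17, a keratin of activated and basal keratinocytes, was at 187 and 120 CPM, and KRT16, its usual companion in activated cells, at 438 and 567 CPM. The share of KRT5 fragments in its main coding sequence went from 69.5% to 77.1%.

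S100 proteins, small calcium-binding proteins, held the 3 largest rises among genes with a symbol and at least 10 CPM. Of 10 measured members 6 rose, 0 fell and the median was 1.42. S100A12 went from 10 fragments on day 4 to 2107 on day 6, or from 0.918 to 175 CPM, 190.4-fold [103 to 398]. It belongs with S100A8 and S100A9 to the calgranulins, antimicrobial proteins of neutrophils and stressed epithelia, which rose by 5.41 and 7.30 on the log2 scale. S100A13 rose 3.83-fold [3.09 to 4.8] and S100A14 2.82-fold [2.7 to 2.95]. S100A6 was already abundant and rose from 2134 to 5407 CPM, 2.53-fold [2.5 to 2.57]. It had the highest TPM of the day 6 library, at 14564, against 7542 on day 4.

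Genes of the cornified envelope and of stratification moved in both directions: 12 of 29 rose, 4 fell and the median was 0.55. Small proteins of the upper layers rose, among them CNFN, an envelope protein, at 11.8-fold [6.19 to 25.1], DMKN, a secreted protein of suprabasal cells, from 2 to 50 fragments, and CSTA, a cysteine protease inhibitor, at 4.47-fold [3.5 to 5.78]. LYPD3, a surface protein of suprabasal cells, rose from 11.8 to 42.4 CPM. The protease inhibitor SPINK9 had 0 fragments on day 4 and 29 on day 6, at least 8.74-fold higher. IVL, the classical envelope precursor, was at 13.7 and 20.5 CPM, 1.5-fold [1.22 to 1.85], and did not pass. GRHL3, a grainyhead factor of the epithelial barrier, fell from 39.1 to 15.7 CPM, CDSN, a corneodesmosome protein, from 42 to 15 fragments, and SERPINB5, a serpin of epithelial cells, from 254 to 121 CPM, 2.1-fold [1.98 to 2.25].

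Some genes of secreted and surface products rose too. Of 15 measured mucins and glycocalyx genes 5 rose and 1 fell. The sialyltransferase ST6GALNAC1, which decorates mucins, rose 4.62-fold [3.23 to 6.76], and LGALS3, a galectin that binds them, 2.98-fold [2.88 to 3.09], while MUC1 was at 19.1 and 18.6 CPM. MUC15 went from 1 to 26 fragments and MUC21 from 4 to 22. The median of this list is 0.41 as reported and -0.11 with the authors' TPM, so its sign depends on the scaling. Among annexins and galectins 4 of 15 rose and 0 fell; LGALS9 and LGALS7 rose 4.93-fold and 7.23-fold, and LGALS1 2.46-fold [2.35 to 2.59] before lying at 88 CPM on day 10. The retinoid list had 7 of 17 up and 1 down (median 0.96), but 3 up and 2 down without TMM and 4 up and 2 down with TPM (median 0.44). RDH12 and DHRS3, retinaldehyde reductases, rose 3.49-fold [2.16 to 5.86] and 4.74-fold [2.2 to 11.7], CRABP2, a carrier of retinoic acid, 3-fold [1.84 to 5.07], and the receptor RARB 2.12-fold [1.8 to 2.49].

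**Figure D2:**
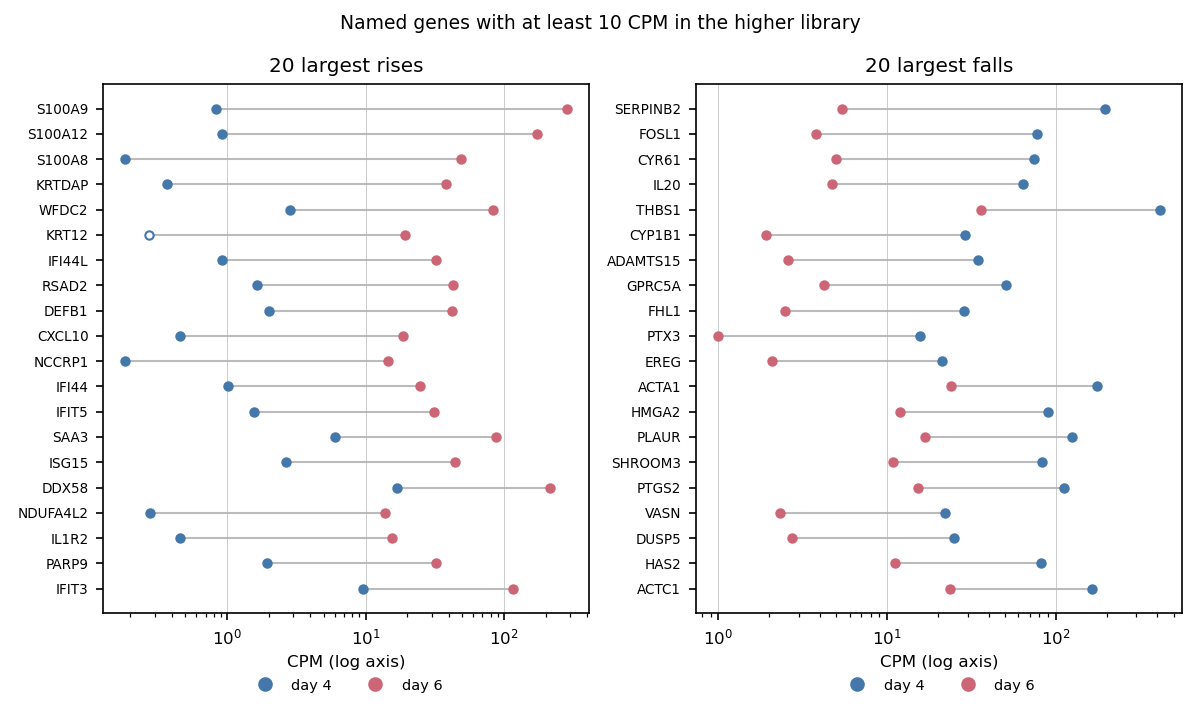
CPM on day 4 (blue) and day 6 (red), on a log axis, of the 20 named genes with the largest rise (left) and the 20 with the largest fall (right) of log2(CPM + 1) among genes that reached 10 CPM on either day; 1 library for each day. The open circle for KRT12 stands at the limit of 3 fragments, since it had 0 fragments on day 4. Calgranulins and interferon-induced genes fill much of the left panel, and SERPINB2, FOSL1, CYR61 and THBS1 stand near the top of the right one.

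Interferon-induced genes moved nearly as a block. Interferons bind cell-surface receptors that act through JAK kinases and the factors STAT2 and IRF9, which switch on antiviral genes. Of 40 measured response genes 34 rose and 0 fell and the median difference was 2.36. As reported all 40 lay above 0, from 0.06 to 4.12, which was not tested under other scalings. Their summed level was 500.7, 1774 and 1821 CPM on days 4, 6 and 10. With TPM 31 rose and the median was 1.88. ISG15, a ubiquitin-like modifier, went from 2.66 to 44.5 CPM, 16.7-fold [11.5 to 25.2]. IFI44 rose from 1.01 to 24.6 CPM, IFIT5, an RNA-binding effector, from 1.56 to 31.1 CPM, 19.9-fold [12.3 to 34.6], and MX1, a GTPase that blocks virus replication, from 2.66 to 15.1 CPM, 5.67-fold [3.82 to 8.71]. Measured enzymes of the ISG15 pathway moved in the same direction: UBE2L6, the conjugating enzyme, rose 10.9-fold [8.21 to 14.7] and UBA7, the activating enzyme, 2.38-fold [1.62 to 3.55], while the removing enzyme USP18 rose 8.3-fold [4.45 to 17.1]. HERC5, a ligase of this pathway, was below the minimum, with 1 fragment on day 4 and 0 on day 6. The members that did not reach 2-fold were SAMD9, PARP12, TRIM21, TRIM25, ADAR and OAS1.

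**Figure D3:**
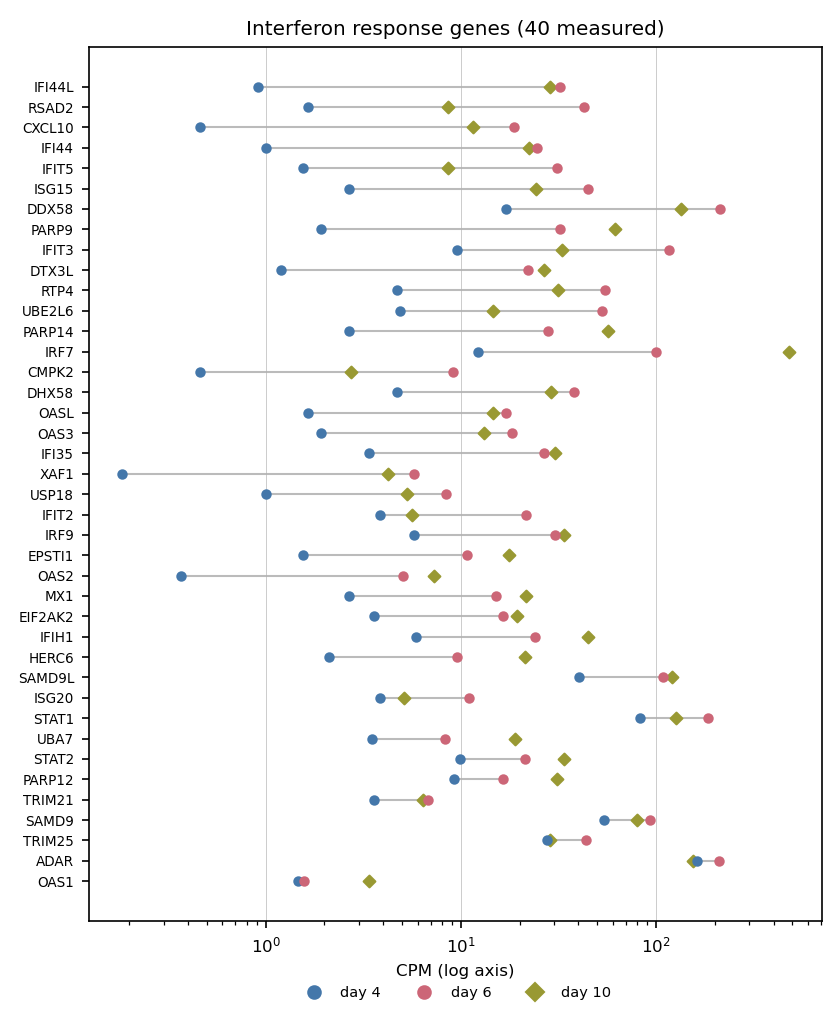
CPM of the 40 measured interferon response genes on day 4 (blue circles), day 6 (red circles) and day 10 (green diamonds), on a log axis, with 1 library for each day. Genes are ordered by the difference between day 6 and day 4. The red point lies to the right of the blue point for all 40, and the day 10 level is lower than day 6 for some (RSAD2, IFIT3, UBE2L6) and higher for others (IRF7, PARP14).

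The receptors, sensors and signalling parts of the pathway formed a separate list. Of 33 measured members 13 rose, 1 fell and the median was 0.78. Among receptors IFNGR1, the binding chain for interferon gamma, rose from 39.9 to 147 CPM, 3.69-fold [3.32 to 4.1], while IFNAR1 was at 9.54 and 17.2 CPM and IFNLR1 at 8.72 and 7.05 CPM. The ligand genes IFNB1, IFNG, IFNE and IFNK had 0 fragments in both libraries, which allows up to 0.275 CPM on day 4 and 0.249 CPM on day 6. RNA sensors rose: DDX58 (RIG-I) from 17 to 214 CPM, 12.6-fold [10.8 to 14.7], DHX58 8.08-fold [6.04 to 11] and TLR3, an endosomal sensor of viral RNA, from 1.65 to 11.2 CPM, 6.78-fold [4.13 to 11.8]. The DNA-sensing adaptor TMEM173 (STING) was at 1.28 and 1.58 CPM. Of the interferon regulatory factors IRF1 rose 4.38-fold [3.64 to 5.3] and IRF9 5.25-fold [4.01 to 6.97]. JAK1 and TYK2 were at 239.8 and 227 CPM and at 13.5 and 20 CPM. In antigen presentation 4 of 13 rose and 0 fell, with PSMB9, an immunoproteasome subunit, at 3.64-fold [2.55 to 5.31] and TAP2, the peptide transporter, at 2.47-fold [2.02 to 3.03].

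Genes that carry no symbol in the tables rose with this group. LOC100342321, LOC100342069 and LOC108178445, which lie between IFIT5 and IFIT3 in the RefSeq assembly mOryCun1.1, rose 52.8-fold [38 to 75.7], 40.6-fold [31 to 54.4] and 28.1-fold [14.1 to 65.9]. The level of LOC100342321 was 3.3, 174.6 and 49.7 CPM on days 4, 6 and 10. LOC100342826, for which no place in that assembly was found, rose from 4.59 to 311.8 CPM, 68-fold [51.4 to 91.7], and LOC100356242 from 3.21 to 127.9 CPM, 39.8-fold [28.5 to 57.4]. In the stretch next to KYAT3, LOC100349005 rose 9.34-fold [8.24 to 10.6], LOC100358539 7.28-fold [6.48 to 8.21], LOC100349257 12.9-fold [9.27 to 18.6] and LOC100347754 6.04-fold [4.77 to 7.74]. LOC100008716, between PPBP and CXCL8, rose from 15.1 to 102.9 CPM, 6.8-fold [5.77 to 8.05]. These genes were singled out after their values were seen, and neighbours that are near-identical copies can share reads.

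Cytokine and defence genes went both ways. Of 28 cytokine and chemokine genes 7 rose and 3 fell (median 0.38), and with TPM 6 rose and 5 fell. CXCL10, a riser that also stands in the interferon response list, went from 5 to 225 fragments. TNFSF10, the death ligand TRAIL, rose from 3 to 138 fragments, and IL1R2, a decoy receptor for interleukin 1, from 5 to 187, 33.8-fold [14.2 to 105]. IL1A was at 139 and 136 CPM. IL20, a cytokine that acts on keratinocytes, fell from 64.2 to 4.73 CPM, 13.6-fold [10.4 to 18.1], and PTGS2, the inducible cyclooxygenase, from 111 to 15.2 CPM, 7.34-fold [6.28 to 8.62]. In the defence and complement list 4 of 16 rose and 3 fell. DEFB1, an epithelial antimicrobial peptide, rose from 2.02 to 42.2 CPM, 20.9-fold [13.7 to 33.7], SAA3, an acute-phase protein, from 6.06 to 86.9 CPM, 14.3-fold [11.2 to 18.7], and CFB, a complement activator, 11.6-fold [5.69 to 27.7]. The complement genes C3 and C1R fell 3.5-fold [2.97 to 4.13] and 3.85-fold [2.91 to 5.15], and C1S fell to 4.81 CPM. Of 17 NF-kB pathway genes 2 rose, NFKBIA at 2.23-fold [1.99 to 2.5] and NFKBIZ at 2.23-fold [1.75 to 2.87], and TNFAIP2 fell 2.69-fold [2.12 to 3.44]; the median was 0.01, close to that of all genes, and 0 rose without TMM or with TPM. The whey-acidic protein WFDC2, a secreted protease inhibitor of surface epithelia, rose from 2.85 to 83.5 CPM, 29.4-fold [20.6 to 43.4], and reached 1071 CPM on day 10.

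As reported, glycolytic genes lay higher on day 6 along the whole pathway, and 12 passed 2-fold. Glycolysis turns glucose into pyruvate, and lactate dehydrogenase converts pyruvate to lactate when respiration is limited. Of 28 measured genes 12 rose and 0 fell, the median was 0.9, and all 28 lay above 0, the lowest at 0.24. Whether all stay above 0 under other scalings was not tested. Their summed level went from 17250 to 40836 CPM. With TPM 8 rose and the median was 0.56. Uptake comes through SLC2A1 (GLUT1), which rose from 481 to 1151 CPM, 2.39-fold [2.32 to 2.47]. Among the enzymes PFKL, the liver-type phosphofructokinase, rose 2.94-fold [2.72 to 3.19], ALDOA 2.74-fold [2.67 to 2.81], TPI1 from 504 to 1673 CPM, 3.32-fold [3.22 to 3.42], GAPDH from 2710 to 6724 CPM, 2.48-fold [2.45 to 2.51], and PGK1 2.25-fold [2.2 to 2.31]. At the foot of the pathway ENO1 was at 3038 and 5652 CPM and PKM at 1709 and 3201 CPM, both short of 2-fold, with the PKM coding sequences at 45.9% and 54.1% of its fragments on day 4 and 46.7% and 53.3% on day 6. HK1 and HK2, the hexokinases of the first step, were at 184 and 266 CPM and 144 and 182 CPM. PDK2, a kinase that holds pyruvate out of mitochondria, rose 4.25-fold [2.9 to 6.38].

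LDHA had the largest gain in CPM, a scale not corrected for length: it gained 7754 CPM, from 3277 to 11030 CPM, and its TPM went from 3153 to 8245. LOC100355262 and LOC100351519, which have no symbol, gained nearly in step with it: they went from 1936 to 6411 CPM, 3.31-fold [3.26 to 3.36], and from 1889 to 6325 CPM, 3.35-fold [3.3 to 3.4], where LDHA rose 3.37-fold [3.33 to 3.41]. LOC108176694 rose from 1692 to 4597 CPM, 2.72-fold [2.67 to 2.76]. Whether these share reads with a named gene was not tested.

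Hypoxia response genes, many of them known targets of the factor HIF1A, rose in part. Of 40 measured members 17 rose and 1 fell (median 0.85), and 15 members stand in another list as well, some of them among the glycolysis genes. Carbonic anhydrases CA12 and CA9, which handle acid, rose 5.65-fold [4.6 to 7] and 2.94-fold [2.63 to 3.29]. BNIP3L, a mitophagy receptor, rose from 84.8 to 361 CPM, 4.26-fold [3.96 to 4.57], DDIT4, a brake on mTOR, from 41.7 to 214 CPM, 5.13-fold [4.64 to 5.68], and STC2, a secreted glycoprotein, 5.65-fold [3.65 to 9.09]. Its relative STC1 fell 2.66-fold [1.89 to 3.77]. The regulator HIF1A itself was at 565 and 640.3 CPM, VEGFA, the angiogenic growth factor, at 51.7 and 92.9 CPM, and P4HA1, a collagen prolyl hydroxylase, at 55.6 and 55.7 CPM. NDUFA4L2, a small mitochondrial protein of hypoxic cells, rose from 3 to 168 fragments, 50.6-fold [17 to 248].

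In energy metabolism outside glycolysis few genes passed 2-fold. In the list kept for the TCA cycle and nearby enzymes 1 of 33 rose, PCK2, at 4.17-fold [3.85 to 4.52]. In the list kept for complex I 1 of 32 rose, NDUFA4L2, named above as a protein of hypoxic cells. In complexes III to V 2 of 33 rose, ATP5E at 2.49-fold [2.33 to 2.66] and COX6A1 at 2.34-fold [2.19 to 2.5]. In these 3 lists 0 genes fell; with TPM 2 TCA cycle genes fell and 0 genes of complexes III to V rose. Among the 13 mitochondrially encoded genes 2 fell (4 with TPM), ND6 at 2.28-fold [2.15 to 2.42] and ND3 at 2.06-fold [1.91 to 2.23]. In serine synthesis 2 enzymes passed 2-fold: PSAT1 rose from 126 to 423 CPM, 3.34-fold [3.15 to 3.55], PSPH 2.38-fold [1.98 to 2.87], while PHGDH, the entry enzyme, was at 110.4 and 186 CPM. In the same list MTHFD1, a cytosolic folate enzyme, fell 2.1-fold [1.98 to 2.23]. This list had 4 of 19 up and 1 down as reported and 2 up and 5 down with TPM. Of 31 antioxidant genes 5 rose and 2 fell as reported, against 1 and 3 with TPM. SOD1, CAT and GSTM3, which detoxify superoxide, peroxide and electrophiles, rose 2.44-fold [2.31 to 2.58], 2.58-fold [2.07 to 3.23] and 2.46-fold [2.34 to 2.59]. On the log2(TPM + 1) scale all 3 were under 2-fold. TXNRD1, thioredoxin reductase, fell from 170.3 to 33.3 CPM, 5.12-fold [4.59 to 5.72], and GCLC, the limiting enzyme of glutathione synthesis, 2.46-fold [2.19 to 2.77]. Lipid synthesis was near background: 1 of 24 sterol genes and 2 of 32 fatty acid genes rose and 0 fell in either list. Among ceramide and barrier lipid genes CERS3, ABCA12 and CYP4F22 rose and UGCG and SGMS2 fell, of 20; with TPM 1 rose. Lysosomal and autophagy genes rose in 10 of 49 cases and fell in 0 (median 0.4), with the cathepsins CTSF, CTSH and CTSC at 3.62-fold [2.85 to 4.63], 3.46-fold [2.59 to 4.69] and 2.19-fold [2.07 to 2.33], the sialidase NEU1 at 3.55-fold [2.86 to 4.43] and the kinase ULK1, which starts autophagy, at 2.73-fold [2.34 to 3.19]. Without TMM 5 rose, and with TPM 5 rose and 1 fell, with a median of 0.04.

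**Figure D4:**
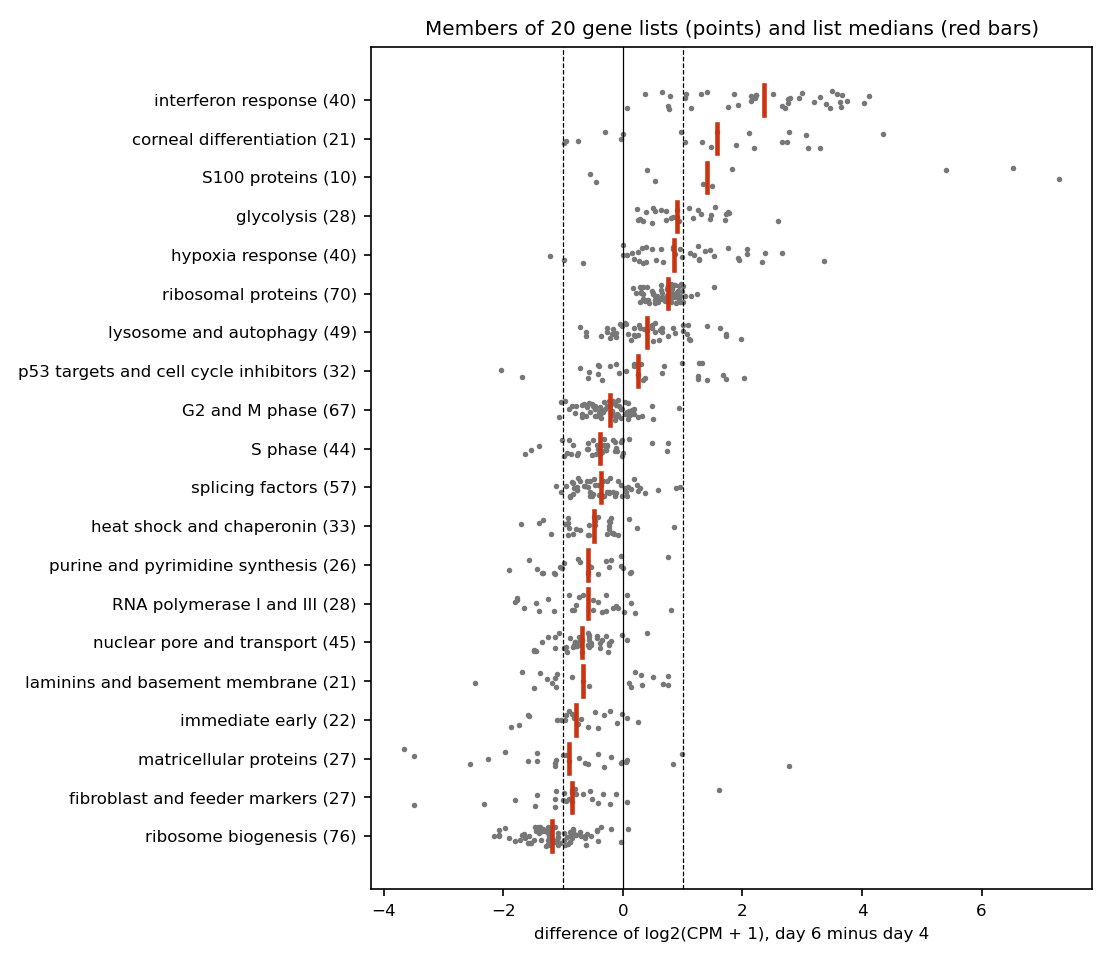
Difference of log2(CPM + 1), day 6 minus day 4, for each measured member (grey points) of 20 gene lists, with the list median as a red bar and the number of members in brackets; the dashed lines mark 2-fold. The interferon response median lies at 2.36 and the ribosome biogenesis median at -1.19. Ribosomal proteins all lie to the right of 0, with a median of 0.75.

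Of the lists with more than 20 measured members, ribosome biogenesis had the largest share of falls. Ribosome biogenesis takes place mainly in the nucleolus, where RNA polymerase I transcribes ribosomal RNA and several assembly complexes trim and fold it. Of 76 measured biogenesis genes 48 fell, 0 rose and the median was -1.19, and 75 lay below 0. Their summed level was 15185, 7593 and 4592 CPM on days 4, 6 and 10. With TPM 63 fell and the median was -1.51. RPF2, needed for the large subunit, fell from 50 to 11 CPM, 4.53-fold [3.75 to 5.52], NOL10 from 105 to 24.2 CPM, 4.35-fold [3.82 to 4.96], BYSL, a small-subunit factor, 4.25-fold [3.42 to 5.32], and URB1 3.88-fold [3.41 to 4.41]. NCL (nucleolin), an abundant nucleolar protein, fell from 2128 to 1021 CPM, 2.08-fold [2.04 to 2.13]. NPM1, a nucleolar chaperone, decreased by 1382 CPM, from 3918 to 2537 CPM, 1.54-fold [1.52 to 1.57], and did not reach 2-fold.

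In groups that feed ribosome production a smaller share of genes fell. Of 28 RNA polymerase I and III genes 8 fell and 0 rose (median -0.58), and 14 fell with TPM. POLR1A and POLR1B, the large subunits of polymerase I, fell 3.49-fold [3.12 to 3.91] and 3.64-fold [3.13 to 4.25], POLR3G, a polymerase III subunit, 3.69-fold [2.98 to 4.61], and TCOF1, which links transcription and processing, 3.21-fold [2.85 to 3.62]. Of 26 genes of purine and pyrimidine synthesis 9 fell and 0 rose (median -0.58). UMPS fell from 37.1 to 9.12 CPM, 4.06-fold [3.28 to 5.07], PFAS from 104 to 34.5 CPM, 3.02-fold [2.7 to 3.39], PPAT, the committed step of purine synthesis, 2.85-fold [2.32 to 3.52], and CAD, which starts pyrimidine synthesis, from 252 to 115 CPM, 2.19-fold [2.05 to 2.34]. Nuclear pore and transport genes had 8 of 45 down and 0 up (median -0.69), among them NUP153 at 2.83-fold [2.55 to 3.14] and NUP35 at 2.91-fold [2.44 to 3.49]; with TPM 23 fell. ODC1 and AMD1, the limiting enzymes of polyamine synthesis, fell from 385 to 160 CPM and from 164 to 59.5 CPM.

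Ribosomal proteins went the other way. As reported, all 70 measured genes lay above 0, from 0.17 to 1.53. Of these 6 rose, 8.57%, a share at the background of all genes (8.35%). Their summed level went from 75044 to 124162 CPM. The size of this shift depended on the scaling: the median was 0.75 as reported, 0.59 without TMM and 0.39 with TPM, with 2 genes past 2-fold without TMM and 1 with TPM. RPL38 rose 2.37-fold [2.26 to 2.47], RPL26 2.2-fold [2.15 to 2.26] and RPS23 2.02-fold [1.98 to 2.06], and RPLP0 was at 2460 and 4250 CPM, 1.73-fold [1.7 to 1.75]. Translation factors had 5 of 47 down and 0 up, with 9 down without TMM and 12 with TPM. EEF1E1, an auxiliary protein of the synthetase complex, fell from 44.7 to 10.6 CPM, 4.21-fold [3.46 to 5.16], and EIF3J 2.56-fold [2.32 to 2.83], whereas EEF1A1, the main elongation factor, was at 10379 and 15241 CPM. Among tRNA synthetases WARS, which is also induced by interferon, rose 2.02-fold [1.93 to 2.13] and FARSB fell 2.17-fold [2 to 2.36], of 21. Heat shock and chaperonin genes had 4 of 33 down and 0 up (median -0.49), with 10 down without TMM and 13 with TPM, led by HSPH1, a co-chaperone of HSP70, from 189 to 57.1 CPM, 3.31-fold [3.03 to 3.61]. In the mitochondrion HSPD1 (HSP60) fell from 1219 to 489 CPM, 2.49-fold [2.42 to 2.57], the translocase subunit TIMM17A 2.87-fold [2.57 to 3.22], and MRPL46, a mitochondrial ribosome protein, 3.02-fold [2.31 to 3.97]. Of 71 mitochondrial ribosome genes 5 fell, a share at the background of all genes, and 11 fell with TPM.

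Cell cycle genes were mostly below their day 4 level, and how many passed 2-fold depended on the scaling: as reported 3 G1, 4 S phase and 2 G2 and M phase genes fell, without TMM 4, 8 and 5, and with TPM 7, 11 and 9. In G1 22 of 24 genes lay below 0 and 3 fell, 12.5% against 6.98% of all genes. These were CDC25A, the phosphatase that opens S phase, from 23.2 to 6.8 CPM, 3.41-fold [2.65 to 4.43], CDK2 2.55-fold [2.21 to 2.96] and E2F7 2.86-fold [1.93 to 4.33]. CCNE1, its cyclin partner, was at 24.4 and 11.8 CPM, just short of 2-fold. Of 44 S phase genes 40 lay below 0 and 4 fell, 9.09%, a share close to the 6.98% of all genes. Among the 4 were POLE2, a subunit of the leading-strand polymerase, at 3.37-fold [2.65 to 4.32], and MCM10, a replication fork factor, at 3.08-fold [2.51 to 3.8]. PCNA was at 381 and 317 CPM and MCM2 at 196 and 189.8 CPM. Of 67 G2 and M phase genes 2 fell, ANLN at 2.1-fold [1.95 to 2.27] and CDCA5 at 2.14-fold [1.75 to 2.64], a share of falls below that of all genes; CDK1 was at 209 and 119.8 CPM and AURKB, a mitotic kinase, at 62.1 and 58.5 CPM. The summed levels of all 3 lists were lower again on day 10, when S phase genes summed to 1817 CPM, against 4404 and 3451 CPM on days 4 and 6.

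Inhibitors of the cycle did not move as a set: 8 of 32 genes of the p53 and inhibitor list rose and 2 fell. The 3 measured genes of the INK4 family, which blocks CDK4 and CDK6, rose: CDKN2B from 4.5 to 12.8 CPM, 2.84-fold [2.05 to 4], CDKN2C 2.83-fold [1.96 to 4.17] and CDKN2D 4.33-fold [2.77 to 7.03]. In the CIP family 2 members were within 2-fold, with CDKN1A (p21) at 102 and 76.7 CPM and CDKN1B (p27) at 5.42 and 6.3 CPM. CCNG2, a cyclin of resting cells, rose from 7.53 to 33.6 CPM, 4.46-fold [3.51 to 5.73], and the sestrins SESN3 and SESN1 3.39-fold [2.77 to 4.17] and 2.94-fold [2.18 to 4.02]. PLK2 and PLK3, polo-like kinases induced by growth factors and stress, fell 3.25-fold [3.06 to 3.46] and 4.51-fold [3.58 to 5.74]. The median of this list was 0.24, and -0.07 with TPM. In the MYC network 6 of 15 rose and 0 fell as reported, and 5 rose and 1 fell without TMM or with TPM. MYC was at 90.2 and 47.3 CPM, 1.91-fold [1.72 to 2.12], short of a 2-fold fall as reported. Its TPM went from 78.3 to 31.5, past 2-fold. The MYC antagonists MXD3, MXD4 and MXI1 rose 6.84-fold [4.33 to 11.4], 2.75-fold [2.33 to 3.24] and 2.59-fold [2.02 to 3.37], and MYCL rose 3.59-fold [2.45 to 5.39]. HMGA2 and HMGA1, chromatin proteins of growing cells, fell from 90 to 11.9 CPM, 7.59-fold [6.36 to 9.11], and from 144 to 48.8 CPM, 2.96-fold [2.69 to 3.26]. They were the 2 falls among 45 measured chromatin genes (4 without TMM or with TPM), where CBX2 rose from 8 to 43 fragments.

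Along the EGF receptor pathway, several ligands and outputs fell, while the receptor EGFR and its adaptors were within 2-fold. Receptor tyrosine kinases of this family bind ligands shed from neighbouring cells and signal through RAS and ERK to immediate early factors, and ERK in turn induces its own phosphatases. Of 21 measured receptor and ligand genes 4 fell, 1 rose and the median was 0.01. The fallers were all ligands: HBEGF went from 25.3 to 5.06 CPM, 5.01-fold [3.78 to 6.72], and NRG1 from 164 to 68.4 CPM, 2.4-fold [2.21 to 2.61], besides AREG, at 80.6 and 12.8 CPM, and EREG, at 21.1 and 2.07 CPM. TGFA, also a ligand, was at 11.4 and 12.1 CPM. Among receptors ERBB3 rose from 17.6 to 64.5 CPM, 3.66-fold [3.12 to 4.31], while EGFR was at 203 and 181 CPM and ERBB2 at 55.2 and 88 CPM. The adaptors SHC1 and GRB2 were at 165 and 143 CPM and at 69 and 55.6 CPM.

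Downstream, ERK feedback genes had 7 of 27 down and 1 up (median -0.41). DUSP5 and DUSP4, nuclear ERK phosphatases, fell from 24.8 to 2.74 CPM, 9.05-fold [6.29 to 13.4], and from 34 to 8.54 CPM, 3.98-fold [3.19 to 5], whereas DUSP6, the cytoplasmic phosphatase, was at 32.2 and 29.4 CPM. PHLDA1 and IER3, early ERK targets, fell 3.15-fold [2.61 to 3.83] and 3.21-fold [2.53 to 4.11]. SPRY1, an inhibitor of the pathway, rose from 2.02 to 7.63 CPM, 3.78-fold [2.35 to 6.32]. Of 22 immediate early genes 6 fell and 0 rose (median -0.79), and 11 fell with TPM: the orphan receptors NR4A1 and NR4A2 fell 3.97-fold [2.83 to 5.68] and 4.1-fold [3.15 to 5.4], NR4A3 went from 47 to 19 fragments, and EGR3 from 52 to 11 fragments, while FOS and EGR1 were at 13.2 and 12.3 CPM and at 10.7 and 8.38 CPM. Among AP-1 subunits FOSL1 fell from 77.1 to 3.81 CPM, 20.2-fold [15 to 27.8]. FOSL2 rose from 17.3 to 38.6 CPM, 2.22-fold [1.87 to 2.65], but was under 2-fold without TMM and with TPM, while JUN was at 23.8 and 20.5 CPM.

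**Figure D5:**
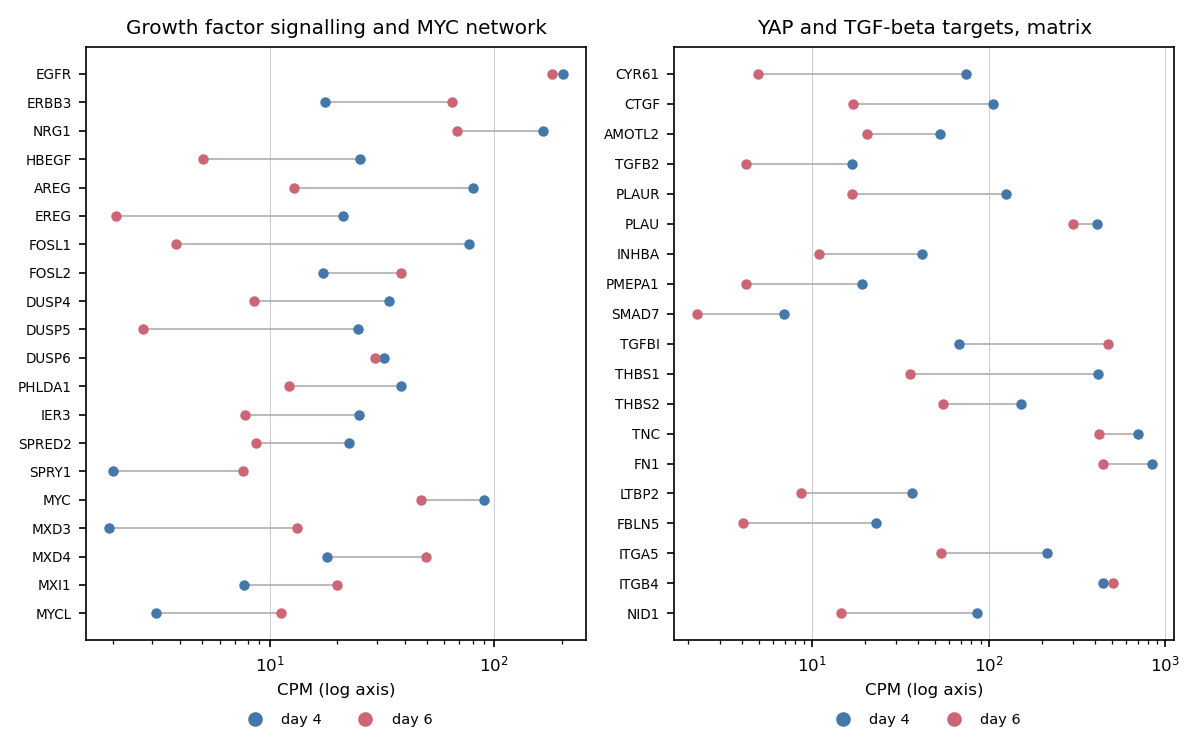
CPM on day 4 (blue) and day 6 (red), on a log axis, of selected genes of growth factor signalling and the MYC network (left) and of YAP targets, TGF-beta and matrix genes (right), 1 library for each day. On the left EGFR and DUSP6 lie close on both days while ligands and FOSL1 lie far to the left on day 6 and MXD3, MXD4 and MXI1 to the right; on the right TGFBI lies to the right on day 6 and ITGB4 close on both days, with the other genes lower.

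Some targets of YAP and of TGF-beta fell. YAP, a co-activator that responds to cell density and tension, and TGF-beta share several targets, so the lists overlap. Of 32 YAP and TEAD genes 6 fell and 2 rose; CYR61 (CCN1) went from 74.7 to 4.98 CPM, 15-fold [11.5 to 19.9], CTGF (CCN2) from 105 to 17.1 CPM, 6.17-fold [5.32 to 7.19], and AMOTL2, a feedback inhibitor, 2.59-fold [2.23 to 3.02], whereas YAP1 itself was at 64 and 87 CPM. The risers were NUAK2, at 3.7-fold [2.62 to 5.35], and NT5E, at 3.73-fold [2.52 to 5.67]. Of 26 TGF-beta genes 10 fell and 1 rose (median -0.49). The ligand TGFB2 fell 3.97-fold [2.9 to 5.53] and INHBA, the activin subunit, from 41.9 to 11 CPM, 3.79-fold [3.12 to 4.64]; TGFB1 was at 6.24 and 6.22 CPM and the receptors TGFBR1 and TGFBR2 at 18.1 and 15.8 CPM and at 45.4 and 49.1 CPM. The target PMEPA1 fell 4.51-fold [3.31 to 6.26] and the inhibitor SMAD7 3.12-fold [1.98 to 5.03]. The riser was TGFBI, described above. In the BMP list FST (follistatin) and GREM1, secreted antagonists, fell from 81.5 to 15.5 CPM, 5.25-fold [4.48 to 6.19], and from 22.9 to 7.3 CPM, 3.13-fold [2.45 to 4.04].

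Notch and WNT genes changed in a few members. Of 16 Notch genes 3 rose and 0 fell: the ligand DLL1 from 13 to 45.8 CPM, 3.51-fold [2.92 to 4.25], the glycosyltransferase LFNG, which tunes receptor choice, 3.46-fold [2.8 to 4.31], and HES2 from 10 to 37 fragments. This list had 2 up and 1 down without TMM, and 2 up and 2 down with TPM. NOTCH3 was at 154 and 268 CPM, the ligand JAG1 at 265 and 147 CPM and the target HES1 at 25.6 and 22 CPM. Of 35 WNT genes 5 rose and 2 fell, and with TPM 2 rose. SFRP1, a secreted WNT antagonist, rose from 8.9 to 39.7 CPM, 4.46-fold [3.58 to 5.61], WNT4 2.76-fold [2.3 to 3.32] and the receptor LGR4 2.61-fold [2.2 to 3.11]. DKK1, another antagonist, fell from 97 to 2 fragments, 53.7-fold [14.5 to 449], and was at 16.5 CPM on day 10. In the growth factor list IGFBP2 rose 7.11-fold [5.24 to 9.86] and FGFR4 2.44-fold [2.18 to 2.74], while FGF7, made by mesenchymal cells for epithelia, fell 7.01-fold [4.24 to 12.2].

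Many matrix genes fell, and so did 9 of 27 fibroblast and feeder markers. Of 27 matricellular proteins 11 fell and 1 rose (median -0.91), of 21 basement membrane genes 9 fell and 0 rose (median -0.66), of 27 collagens and their enzymes 3 fell and 0 rose (median -0.41) and the fibroblast and feeder list, with 1 riser and a median of -0.86, shares 25 of its members with other lists. Without TMM 7 collagen genes and 15 fibroblast markers fell, and with TPM 10 and 17. The fibroblast list summed to 9149, 5645 and 3622 CPM on days 4, 6 and 10; its part in the fall of matrix genes was not tested. THBS1 went from 414 to 35.9 CPM, 11.5-fold [10.4 to 12.7], FBLN5, a fibulin of elastic fibres, 5.69-fold [4.18 to 7.89], LTBP2 4.26-fold [3.43 to 5.33] and VCAN, a large proteoglycan, 3.1-fold [2.69 to 3.58]. TNC was at 698 and 421 CPM. In the basement membrane COL4A1 and COL4A2, the collagen network, fell from 371 to 115 CPM, 3.21-fold [3.02 to 3.42], and from 273 to 112 CPM, 2.43-fold [2.28 to 2.59], NID1, a linker, to 14.7 CPM, and LAMA3, a laminin chain of epithelia, 2.16-fold [2.06 to 2.26]. LAMB3, another laminin chain, was at 418 and 284 CPM, and both lay higher on day 10 than on day 6, at 609 and 399 CPM. COL17A1, a hemidesmosome collagen of basal epithelial cells, was at 2332 and 2411 CPM.

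In the plasminogen and metalloproteinase lists some members fell. PLAUR, the urokinase receptor, went from 125 to 16.8 CPM, 7.41-fold [6.39 to 8.63], while the enzyme PLAU was at 411 and 299 CPM. SERPINB2, a protease inhibitor, had the largest fall of any named gene at 10 CPM or more, from 195 to 5.39 CPM, 36.1-fold [28.2 to 46.9]. Of 20 genes of the plasminogen system and serpins 6 fell and 1 rose, SERPING1, from 1 to 34 fragments. Of 26 metalloproteinases and inhibitors 5 fell and 2 rose. ADAMTS1 and ADAMTS15, which cut proteoglycans, fell 6.34-fold [4.98 to 8.17] and 13.4-fold [9.27 to 20], and TIMP3, a matrix-bound inhibitor, 3.38-fold [2.75 to 4.2], whereas MMP9 and MMP14 were at 17 and 11 CPM and at 106 and 121 CPM. HAS2, the enzyme that makes hyaluronan, fell from 81.6 to 11.1 CPM, 7.34-fold [6.12 to 8.87].

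The adhesion and cytoskeleton genes that fell included mesenchymal and contractile ones. Of 21 integrin and hemidesmosome genes 3 fell and 1 rose: ITGA5, the fibronectin receptor chain, went from 213 to 53.7 CPM, 3.97-fold [3.63 to 4.33], ZYX, a focal adhesion protein, 2.27-fold [2.1 to 2.46] and FERMT2 2.28-fold [1.93 to 2.69], while the epithelial kindlin FERMT1 rose 2.3-fold [1.98 to 2.68]. The integrin chains ITGA3 and ITGB1 were at 584 and 473 CPM and at 436 and 378 CPM. Of 11 genes of mesenchymal transition 5 fell and 0 rose (median -0.96; 8 fell with TPM), CDH2 (N-cadherin) from 15.3 to 2.07 CPM, 7.39-fold [4.84 to 11.8], PRRX1 3.64-fold [3.1 to 4.29] and ZEB1 and ZEB2 3.08-fold [2.15 to 4.5] and 3.39-fold [2.54 to 4.57]. Another 2 lay above 0, the highest at 0.97, just short of a rise. Of these 11 genes 6 stand in other lists, and the 5 fell beside the fibroblast markers above. CDH1 (E-cadherin) was at 291 and 209 CPM and VIM (vimentin) at 1527 and 1203 CPM. Of 33 actin and contractility genes 5 fell and 0 rose (median -0.47; 10 fell with TPM), among them TAGLN at 5.44-fold [4.47 to 6.67] and TPM1 at 2.17-fold [2.05 to 2.28]. The muscle actins ACTA1 and ACTC1 fell from 175 to 23.9 CPM and from 164 to 23.7 CPM, but actin genes are near-identical and their counts are uncertain. None of 13 tubulins moved 2-fold. Junction genes stayed near the background, with 1 up and 1 down of 14 desmosome genes (EVPL at 2.39-fold [2.14 to 2.66], DSC3 at 2.19-fold [2.02 to 2.38]) and 2 up and 3 down of 24 tight and adherens junction genes. Of these CGN (cingulin) rose from 3.3 to 19.7 CPM, 5.97-fold [4.2 to 8.74], and CLDN4 fell 2.77-fold [2.35 to 3.27]. Of 10 connexins 2 rose, GJA1 from 43.2 to 94.3 CPM, 2.18-fold [1.96 to 2.43], and GJB1 2.63-fold [2.12 to 3.27], and GJC1 fell from 32 to 8 fragments. With TPM 0 connexins rose and 2 fell.

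Transcription factors went both ways, with 7 of 47 homeobox, forkhead, SOX and related factors up and 6 down, both shares above those of all genes. HOPX, a homeodomain protein without DNA binding, rose from 2.75 to 12.8 CPM, 4.64-fold [3.12 to 7.11], and SIX4 from 10 to 68 fragments. DLX3 and DLX5, distal-less factors, fell from 72 to 8 and from 32 to 5 fragments, SOX4 2.63-fold [1.92 to 3.62] and RUNX2 2.23-fold [1.65 to 3.04]. SOX9, a limbal progenitor factor, was at 13.5 and 8.87 CPM and KLF4 at 20.1 and 11.5 CPM. Of 24 ETS and grainyhead factors 2 rose and 2 fell, and 4 fell with TPM. EHF, an ETS factor of epithelia, rose from 21.6 to 83.2 CPM, 3.86-fold [3.34 to 4.46], its relative ELF3 from 22.8 to 65.3 CPM, 2.87-fold [2.48 to 3.32], and ETS1 fell from 107 to 41.4 CPM, 2.58-fold [2.32 to 2.87]. In the clock list 1 of 18 rose, NPAS2, at 2.31-fold [1.82 to 2.94].

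Of 35 guidance genes 7 rose and 7 fell as reported, 6 and 8 without TMM, and 4 and 9 with TPM. The ephrin EFNA1 rose from 5.78 to 38.1 CPM, 6.58-fold [5.05 to 8.71], the receptor EPHA1 from 82.1 to 219.6 CPM, 2.67-fold [2.48 to 2.89], EPHB6, a kinase-dead receptor, from 47.5 to 239 CPM, 5.02-fold [4.57 to 5.52], and the secreted semaphorin SEMA3F 2.62-fold [2.41 to 2.85], while its relative SEMA3A fell 2.24-fold [1.78 to 2.84]. EPHA2, a receptor for EFNA1, fell from 209.5 to 96.8 CPM, 2.17-fold [2.02 to 2.33]. SLIT2 and SLIT3, repellent ligands, fell from 53.4 to 7.71 CPM, 6.92-fold [5.55 to 8.71], and from 110.4 to 27.4 CPM, 4.03-fold [3.57 to 4.57], and NTN1 from 56 to 3 fragments. In solute transport 8 of 39 rose and 3 fell as reported, and 5 rose and 7 fell with TPM. SLC16A3, a lactate exporter, and CA2, a carbonic anhydrase of the ocular surface, rose to 66.8 CPM and 11.1 CPM. The water channels differed, with AQP1 falling from 50.2 to 9.62 CPM, 5.22-fold [4.26 to 6.43], and AQP3 at 826 and 1191 CPM.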

How the data were processed

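RNA-seq of 3 RCE1(5T5) libraries, 1 for each stage, was deposited as 1 table per library. The authors gave expected counts of fragments and reads for 38696 coding sequences, per the file headers, and 44.9% to 46.5% of the fragment values are not whole. Per the file headers the authors also deposited a coverage signal per coding sequence, and FPKM, RPKM and TPM values normalized for length and depth. Submitters' processing notes name OryCun2.0. Which aligner and counter made the values, and whether strand was used, is not given in the sources used here.

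For each gene name the counts of its coding sequences were added up, then rounded. CPM used TMM factors (edgeR 4.0.16, R 4.3.3) of 1.071, 0.958 and 0.974 on days 4, 6 and 10. The pseudocount was 1 CPM. Intervals are exact Clopper-Pearson, and a library with 0 fragments of a gene was set at 3 fragments, so that the fold is a bound. PCR copies are not independent molecules. Of 5185 LOC names 671 took a symbol from the RefSeq table of mOryCun1.1, used for names and neighbours only. Counting was tested on simulated data.

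The genes and the 79 lists were chosen with earlier results of these data known, and many lists share genes. Named genes are the 20 largest rises and falls at 10 CPM or more, the 10 largest gains and losses in CPM, each list's key genes and up to 6 members per direction. The following genes, and those without a symbol, were chosen after their values were seen: ADAR, ALDOA, CCNE1, CLU, COL17A1, ENO1, ERBB2, GRB2, HIF1A, HK1, HK2, IFNAR1, IFNGR1, IFNLR1, ITGA3, ITGB1, JAG1, JAK1, KLF6, KRT7, KRT8, KRT16, KRT18, KRT78, NOTCH3, OAS1, P4HA1, PARP12, PARP14, PKM, SAMD9, SHC1, TGFA, TGFBR1, TGFBR2, TMEM173, TRIM21, TRIM25, TYK2, UBA7 and UBE2L6. The planned description of promoter motifs was not run, as no promoter sequences were used here. Some genes are not reported here.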

Additional observations from a re-analysis of the deposited data

How the results depend on the processing

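As reported, 1033 genes rose and 863 fell. The counts were 567 and 1634 with the authors' TPM, 472 and 451 with a pseudocount of 5 CPM, and 151 and 86 at a 4-fold threshold, where a smaller count follows from the stricter threshold. The other 10 of 13 alternatives kept both counts within 1.5 times the reported ones, among them 787 and 1217 without TMM, 978 and 901 with RLE factors, 1169 and 751 with upper-quartile factors, 1408 and 1169 with a pseudocount of 0.1 CPM, 875 and 775 when a gene was read from its highest coding sequence alone, and 1052 and 846 with read counts. The share of calls that were rises was 54.5% as reported, 39.3% without TMM and 25.8% with TPM, and the median over all genes was -0.02, -0.16 and -0.32; the cause was not tested.

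Of 374 named genes past 2-fold, 0 changed sign in any alternative checked for single genes, which left out the 4-fold threshold. This outcome was largely fixed in advance. The genes already lay past 2-fold, and a change of pseudocount or minimum cannot reverse a sign. Of these genes 59 dropped under 2-fold with TPM, 97 with a pseudocount of 5 and 23 without TMM. Of 23 lists with a median of at least 0.5 in size, 1 reversed: endothelial, melanocyte and neural markers went from -0.51 to 1.20 with a minimum of 5 CPM, which leaves 3 of its 7 genes. Lists with medians near 0 changed sign with the scaling, such as basal and limbal progenitor genes (0.15 as reported, -0.19 with TPM). No paired analysis was possible because each stage has 1 library, and for the same reason no library could be left out. Genes of a few fragments rest on wide intervals, and differences between cultures are not measured here.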

Other observations

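Some genes outside the lists moved strongly; they were chosen after their values were seen and belong to no comparison of a group. YPEL1, YPEL2 and YPEL3, members of the small yippee-like family, rose together: YPEL1 from 1.74 to 17.7 CPM, 10.1-fold [6.33 to 17.2], YPEL2 from 8 to 122 fragments, 13.8-fold [6.78 to 32.6], and YPEL3 from 2.29 to 24.2 CPM, 10.6-fold [7.01 to 16.6]. All 3 were higher again on day 10, at 55.2, 31.7 and 109.6 CPM. Surface proteins were among the other risers. FAT2, a giant cadherin of squamous epithelia, rose from 11.4 to 78.2 CPM, 6.87-fold [5.69 to 8.36], TSPAN1, a tetraspanin, from 14.3 to 82.8 CPM, 5.78-fold [4.88 to 6.89], TMPRSS4, a membrane protease, from 19.4 to 90.9 CPM, 4.69-fold [4.05 to 5.46], and SLITRK6 from 1.56 to 27.3 CPM, 17.5-fold [10.8 to 30.4]. EDARADD, the adaptor of the ectodysplasin receptor, rose from 14 to 233 fragments, 15-fold [8.79 to 27.9], and IL18BP, which binds interleukin 18, from 5.42 to 37.8 CPM, 6.99-fold [5.32 to 9.32]. BLVRB, biliverdin reductase B, rose from 117 to 468 CPM, 4-fold [3.76 to 4.25].

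Among the fallers TFRC, the transferrin receptor that brings iron into growing cells, went from 407 to 76.7 CPM, 5.3-fold [4.94 to 5.7], and was at 69.7 CPM on day 10. TM4SF1, a small membrane protein of migrating cells, fell from 409.8 to 88.6 CPM, 4.63-fold [4.33 to 4.95], and TNFRSF12A, the TWEAK receptor, from 93 to 16.9 CPM, 5.5-fold [4.72 to 6.42]. DLK1, a non-canonical Notch ligand of immature cells, fell from 189.9 to 51.2 CPM, 3.71-fold [3.38 to 4.06], and was at 4.33 CPM on day 10. Assembly factors for spliceosomal RNPs moved in the same direction, with GEMIN5 at 102 and 24.5 CPM and WDR77 at 168 and 42.3 CPM. AKAP12, a scaffold for protein kinase A, dipped: it was at 58, 9.7 and 87.1 CPM on days 4, 6 and 10.

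RLN1, the relaxin gene, was at 349, 75.2 and 3696 CPM on days 4, 6 and 10. Genes without a symbol ran beside it. LOC100341333 and LOC108175413, which lie between INSL4 and RLN1 in mOryCun1.1, fell 4.88-fold [4.64 to 5.14] and 5.12-fold [4.45 to 5.91] by day 6. LOC100346250, LOC100347029 and LOC100346509 fell 5.24-fold, 5.05-fold and 5.04-fold. LOC100346250, LOC108175413, LOC100347029 and LOC100346509 had nearly equal counts. These were 1137, 1101, 1082 and 1089 fragments on day 4 and 240, 238, 237 and 239 on day 6. Whether these genes share reads with each other or with RLN1 was not tested, so their falls are not taken as independent. Across genes with at least 2 coding sequences and 200 fragments on both days (2350 genes), the largest move of a coding sequence in its gene's total had a median of 0.4 percentage points and reached 13.3 at most.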
